A study of Rattus norvegicus with 6 samples.

Results

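The glycolysis and hypoxia-response genes described here are a list of 37 genes: 15 enzymes of glycolysis, 2 PFKFB regulators, 3 transporters of glucose or lactate, 5 enzymes that steer pyruvate and lactate, 4 genes of oxygen sensing and 8 further targets of the hypoxia response. The genes were grouped by function, but the list was drawn up when Ak4 and Mgarp were already known to fall on these arrays. Other earlier results of these data were known then too. Of the 37 genes, 34 were measured, of 12603 genes in all, where a gene counts as measured if at least 1 probeset (a set of short probes for one transcript) names that gene and no other. Hk2 was not named by the probe table, Pkm was named only together with another symbol, and Gapdh was covered only by control probesets and a shared one. The values of Pkm and Gapdh are given apart from the rest.

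RNA came from INS-1, an insulinoma line from rat that serves as a stand-in for the insulin-secreting β-cell of the pancreas. The cells were 1 clone, #4S2, which carries insulin 2 C96Y-GFP, a proinsulin with the Akita mutation that misfolds in the endoplasmic reticulum (ER), under a promoter switched on by doxycycline (Dox). All 3 groups were this clone, grown in medium with 11.1 mM glucose and with G418 and hygromycin. Untreated cells received neither drug, the Dox group received Dox at 4 μg/ml as the labels state (the methods of the study give a lower dose), and the Dox+4μ8c group received the same Dox together with the compound 4μ8c at 5 μM, which blocks the endoribonuclease of the ER stress sensor IRE1. RNA was collected after 48 h, with 1 array per group in each of 2 independent experiments, 6 arrays in all. No cells without the transgene were given Dox, so Dox itself and the mutant proinsulin cannot be told apart, and 4μ8c without Dox was not analysed here. No group was labelled as exposed to low oxygen.

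Glycolysis splits glucose into pyruvate in the cytosol. In β-cells most of that pyruvate enters the mitochondria, and the ATP made there triggers insulin secretion, so these cells normally hold little lactate dehydrogenase A and little of the lactate transporter MCT1 (Slc16a1), genes that are kept low in them. When oxygen is scarce, prolyl hydroxylases (Egln1, Egln3) no longer mark the transcription factors HIF-1α (Hif1a) and HIF-2α (Epas1) for destruction, and HIF then raises many glycolytic enzymes, the glucose transporter GLUT1 (Slc2a1) and genes such as Ak4, a mitochondrial matrix adenylate kinase, and Mgarp, a mitochondrial protein linked to the movement of mitochondria along microtubules. Both HIF proteins are controlled mainly through their stability, which an mRNA array does not see.

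HIF binds DNA at the letters ACGTG or GCGTG, and the stretches upstream of the 4 members that fell in both comparisons with untreated cells, and of the 1 member that rose, are shown for orientation. Each line holds the 250 bases before the start of the gene in the gene's own direction, from RefSeq (build GRCr8), with every ACGTG or GCGTG on either strand in capitals (CACGT and CACGC are the same letters read from the other strand).
Ak4 (chr5:121154886-121155135, plus strand): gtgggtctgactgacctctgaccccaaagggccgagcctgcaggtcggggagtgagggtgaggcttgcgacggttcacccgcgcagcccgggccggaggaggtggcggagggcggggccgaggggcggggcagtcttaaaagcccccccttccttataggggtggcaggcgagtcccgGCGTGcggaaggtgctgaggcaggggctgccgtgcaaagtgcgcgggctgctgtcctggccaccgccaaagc
Mgarp (chr2:137590295-137590544, minus strand): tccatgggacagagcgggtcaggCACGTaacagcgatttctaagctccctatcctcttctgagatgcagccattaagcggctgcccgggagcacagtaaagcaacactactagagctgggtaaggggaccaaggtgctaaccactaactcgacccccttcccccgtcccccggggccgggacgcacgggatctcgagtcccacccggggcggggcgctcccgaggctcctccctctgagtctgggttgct
Aldoc (chr10:63715294-63715543, plus strand): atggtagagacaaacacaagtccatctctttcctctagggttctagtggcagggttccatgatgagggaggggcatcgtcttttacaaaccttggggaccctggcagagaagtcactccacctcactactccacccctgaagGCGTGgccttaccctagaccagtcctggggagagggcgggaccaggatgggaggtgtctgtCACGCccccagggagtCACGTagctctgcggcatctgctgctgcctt
Tpi1 (chr4:159305089-159305338, minus strand): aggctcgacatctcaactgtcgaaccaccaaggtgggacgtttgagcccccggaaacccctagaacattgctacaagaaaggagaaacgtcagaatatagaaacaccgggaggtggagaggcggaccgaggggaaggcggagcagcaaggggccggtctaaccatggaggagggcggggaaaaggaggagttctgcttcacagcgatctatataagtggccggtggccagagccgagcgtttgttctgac
Slc16a1 (chr2:194812410-194812659, plus strand): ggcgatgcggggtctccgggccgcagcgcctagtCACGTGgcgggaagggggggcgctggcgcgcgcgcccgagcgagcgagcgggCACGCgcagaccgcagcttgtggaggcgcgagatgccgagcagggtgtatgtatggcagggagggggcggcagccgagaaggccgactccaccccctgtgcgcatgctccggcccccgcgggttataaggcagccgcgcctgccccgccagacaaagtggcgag

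The Ak4 stretch held 1 match, a GCGTG that starts 72 bases before the gene's start, and the Mgarp stretch held 1, a CACGT that starts 227 bases before it. Aldoc held 3 matches, starting 108, 47 and 31 bases before the start. Slc16a1 held a CACGTG, which holds the letters on both strands, 216 bases before the start and a CACGC 164 bases before it, and a further ACGTG at base 6 after the start lay outside the printed stretch. The Tpi1 window had no match, which says only that these letters were not in it.

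Such short letters are common. In windows from 250 bases before to 50 bases after the start, 61.4% of the 10430 measured genes with a RefSeq promoter held at least 1 of them on either strand, against 25 of the 31 measured members with one (80.6%). For ACGTG alone, whose letters also lie within the E-box CACGTG and within the unfolded protein response element (core TGACGTG), the shares were 25.8% of all and 67.7% of members (21 of 31), and for GCGTG alone 49.3% and 51.6%. These shares come from reference sequence and a list made partly of known hypoxia targets, so they are no result of these arrays. Members that passed the test against untreated cells and members that did not held ACGTG in 62.5% (5 of 8) and 69.6% (16 of 23), respectively. Pgk1, Bnip3l and Ndrg1 were without an entry in the promoter table.

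The deposited values are log2 values centred for each probeset within an experiment, so that a value says nothing of how abundant an mRNA was. In experiment 1 the middle of the 3 arrays was at 0 in 100% of probesets, but in experiment 2 in only 0.836%, so there 0 is not the middle of the 3 arrays used here. For that reason levels cannot be compared between genes, and the β-cell identity of the cells cannot be checked by level. Differences between arrays of 1 experiment remain. The spread over all probesets (SD) was 0.176 in the Dox array of experiment 2 and 0.0502 to 0.118 in the other 5 arrays. In experiment 1, 25.5% of probesets had the same value on all 3 arrays and in a further 31.7% exactly 2 of the 3 arrays were at 0, against 1 probeset and 0.412% in experiment 2. The cause was not tested. Of the members, Ldha, Slc16a3 and Pdk4 were tied on all 3 arrays of experiment 1, so that their changes rest on experiment 2 alone. The treatments were checked by genes of the ER stress response. Dnajb9, a chaperone cofactor that depends on IRE1 and XBP1, had a mean log2 change of 1.25 with Dox and 0.20 with Dox+4μ8c. Ddit3 (CHOP), a target of the PERK branch, had 1.20 with each. In the same order, Sdf2l1 had 1.86 and 1.38, Herpud1 1.65 and 1.36, Hspa5 0.70 and 0.66, and Trib3 2.88 and 2.80. The qPCR of the study differed for 2 of these: it found no significant effect of mutant proinsulin on CHOP mRNA, and Trib3 was lowered by the inhibitor.

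To ask whether the glycolysis and hypoxia-response genes changed when mutant proinsulin was induced, Dox was compared with untreated cells. Ak4 and Mgarp had the largest falls of the 34 measured members, and their fall was shared by part of the list. Of the 34, 6 fell (Ak4, Mgarp, Aldoc, Eno2, Tpi1, Ndrg1) and 1 rose (Slc16a1), by limma's moderated test with the experiment as a term and a Benjamini-Hochberg adjusted p below 0.05 over all 12603 genes. Over all genes tested, 2.01% were called lower and 4.42% higher. The 6 members that fell did so by 1.21 to 1.72 fold, and only Ak4 and Mgarp passed 1.5 fold, a fall that 0.175% of all genes reached (22 of 12603). As the falls of Ak4 and Mgarp were known when the list was drawn up, nothing is read from that share. No member rose by 1.5 fold, as 0.968% of all genes did. With Ak4 and Mgarp set aside, 4 of the other 32 members were called lower and 1 higher. Those 32 were also listed with earlier results of these data known, so their counts and medians describe the list and do not test it. The median log2 change was -0.08 over the 34 members, -0.07 over the 32, and 0.01 over all genes. With n = 2 experiments, the p-values and SEs rest only in part on a gene's own spread between the 2 experiments. The moderated test draws that spread towards the spread over all genes (2 residual and 4.25 prior degrees of freedom). RNA was taken from whole cultures, so fewer cells of a kind and less RNA per cell cannot be told apart.

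**Figure D1:**
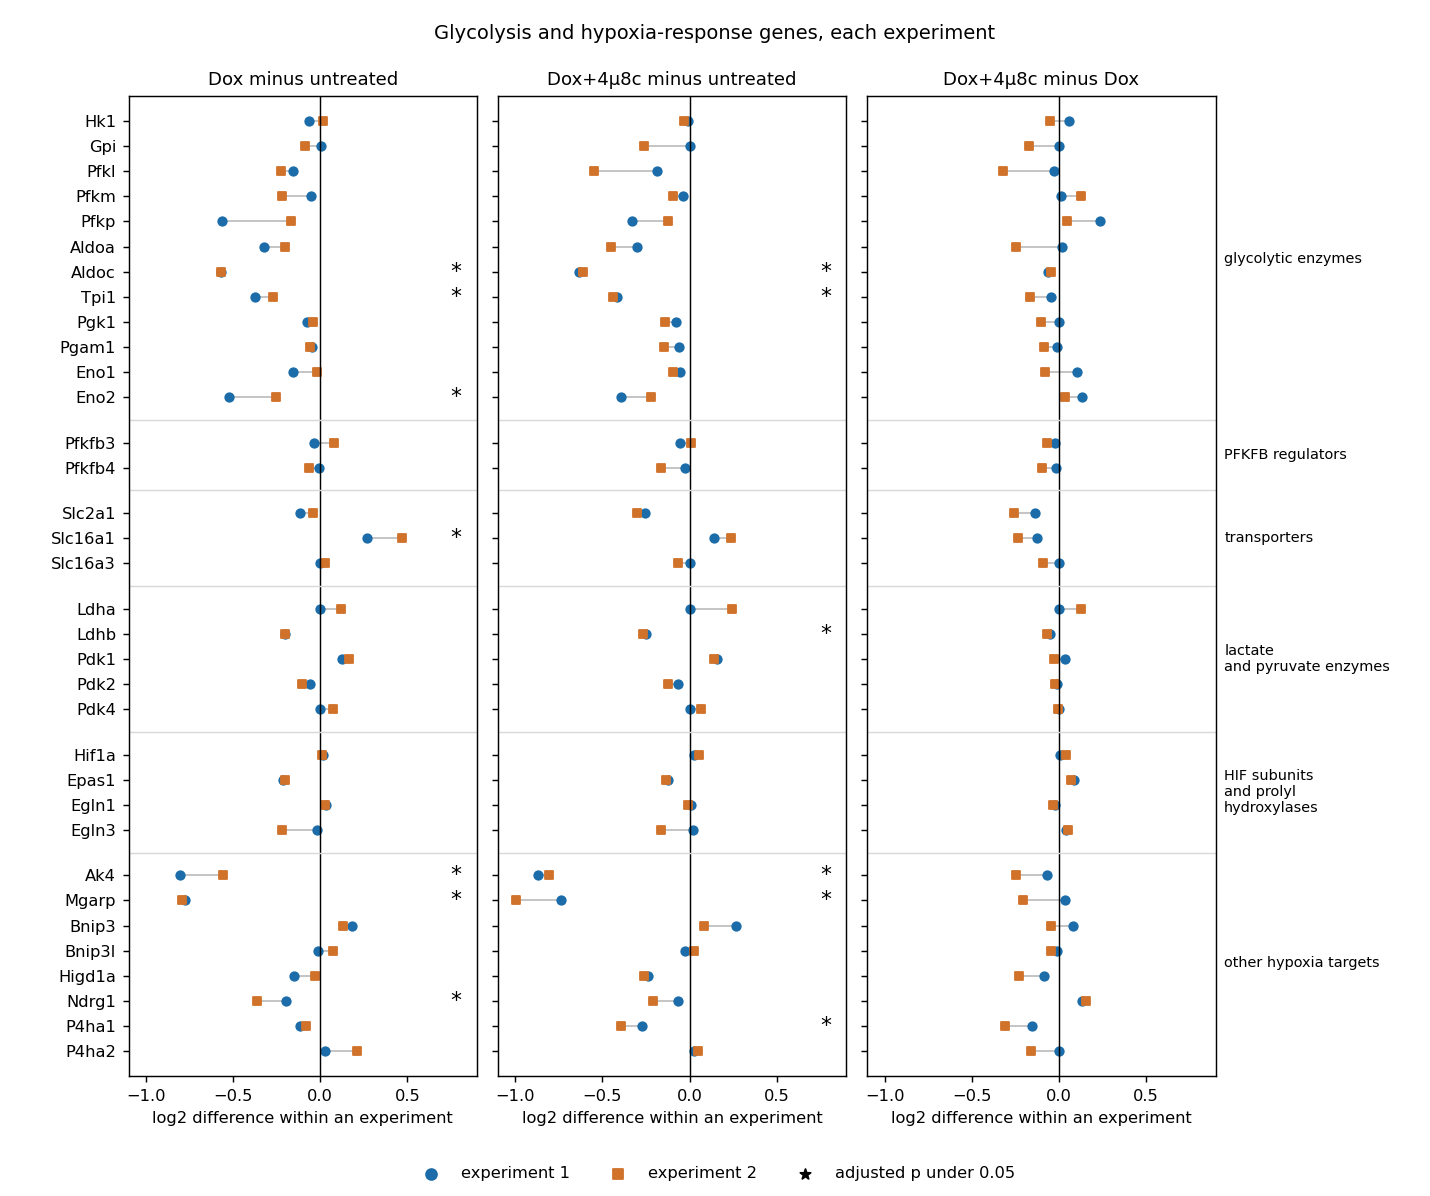
Log2 differences between groups for the 34 measured members, in rows by role, with 1 point for each of 2 experiments (circles experiment 1, squares experiment 2) and a line joining them. Stars mark an adjusted p below 0.05, which 7 members reached for Dox, 6 for Dox+4μ8c against untreated and 0 for Dox+4μ8c against Dox.

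By direction alone, with Dox, 21 of the 34 members were lower than untreated in both experiments and 6 were higher in both, where 24.8% and 26.6% of all genes were. A further 4 members moved in opposite directions in the 2 experiments and 3 were tied in experiment 1. Over all genes, 25.2% were tied between Dox and untreated in experiment 1. A tied gene counts in neither direction, which lowers the shares over all genes more than those of the members. At an unadjusted p below 0.05, 10 members were lower and 3 higher, against 8.44% and 11.2% of all genes.

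Among the glycolytic enzymes, all 12 that were measured had a mean change below 0 with Dox, where 45.1% of all genes did. Of the 12, 10 were lower in both experiments (24.8% of all genes), and the median log2 change was -0.17. None of the 12 was tied in experiment 1, while 25.2% of all genes were, so the 2 shares are not fully alike. For the 3 that passed the test, the value on each array is given on the centred log2 scale.

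Aldoc, aldolase C, the aldolase isoform best known from brain, was at 0.57 and 0.33 in untreated cells of experiments 1 and 2, at 0.00 and -0.24 with Dox, and at -0.06 and -0.28 with Dox+4μ8c. In each experiment the untreated array was above both treated arrays. With Dox its log2 change was -0.57 in each experiment (mean -0.57 ± 0.05 SE, n = 2 experiments, 1.48 fold lower, limma adjusted p = 0.0024). Aldoa, the widespread isoform of the same enzyme, had changes of -0.33 and -0.20 and did not pass the test (limma adjusted p = 0.09).

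Tpi1, triosephosphate isomerase, which interconverts the 3-carbon products of aldolase, was at 0.37 and 0.26 in untreated cells, at 0.00 and -0.01 with Dox and at -0.05 and -0.18 with Dox+4μ8c. Here too the untreated array was the highest of each experiment. The mean change with Dox was -0.32 ± 0.05 (SE, n = 2 experiments, limma adjusted p = 0.0195).

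Eno2, enolase 2, the neuronal and endocrine isoform of the enzyme that makes phosphoenolpyruvate, was at 0.39 and 0.11 in untreated cells, at -0.13 and -0.15 with Dox and at 0.00 and -0.11 with Dox+4μ8c. The untreated array was again the highest of each experiment, although experiment 1 changed by -0.53 and experiment 2 by -0.26. The mean with Dox was -0.39 ± 0.07 (SE, n = 2 experiments, limma adjusted p = 0.0294). Eno1, the ubiquitous enolase, had a mean change of -0.09 and did not pass the test.

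The other glycolytic enzymes missed the threshold with Dox. Pfkp, the platelet isoform of phosphofructokinase, the rate-setting enzyme, changed by -0.57 and -0.17 with Dox (limma adjusted p = 0.0734), while the liver isoform Pfkl had a mean of -0.19 and the muscle isoform Pfkm -0.14. Hk1, Gpi, Pgk1 and Pgam1, which catalyse the hexokinase, glucose phosphate isomerase, phosphoglycerate kinase and mutase steps, had means between -0.06 and -0.03. Pfkfb3 and Pfkfb4, which set the level of fructose 2,6-bisphosphate, an activator of phosphofructokinase, had means of 0.02 and -0.03. None of these 9 genes passed the test with Dox.

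Gapdh was covered by 3 rat control probesets that were not part of the 12603 genes. In a fit that kept them, chosen after the data were seen, its change with Dox was -0.11 and -0.25 (mean -0.18 ± 0.06 SE, n = 2 experiments, limma adjusted p = 0.137). Pkm, pyruvate kinase, shares its only probeset with the symbol Pkm-ps20. In a fit that counted shared probesets, the change of Pkm was -0.11 and -0.25 (limma adjusted p = 0.21). Neither passed the test, and both were below 0 in each experiment with Dox. Hk1 also had rat control probesets, and with them its mean was 0.02 in place of -0.03.

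**Figure D2:**
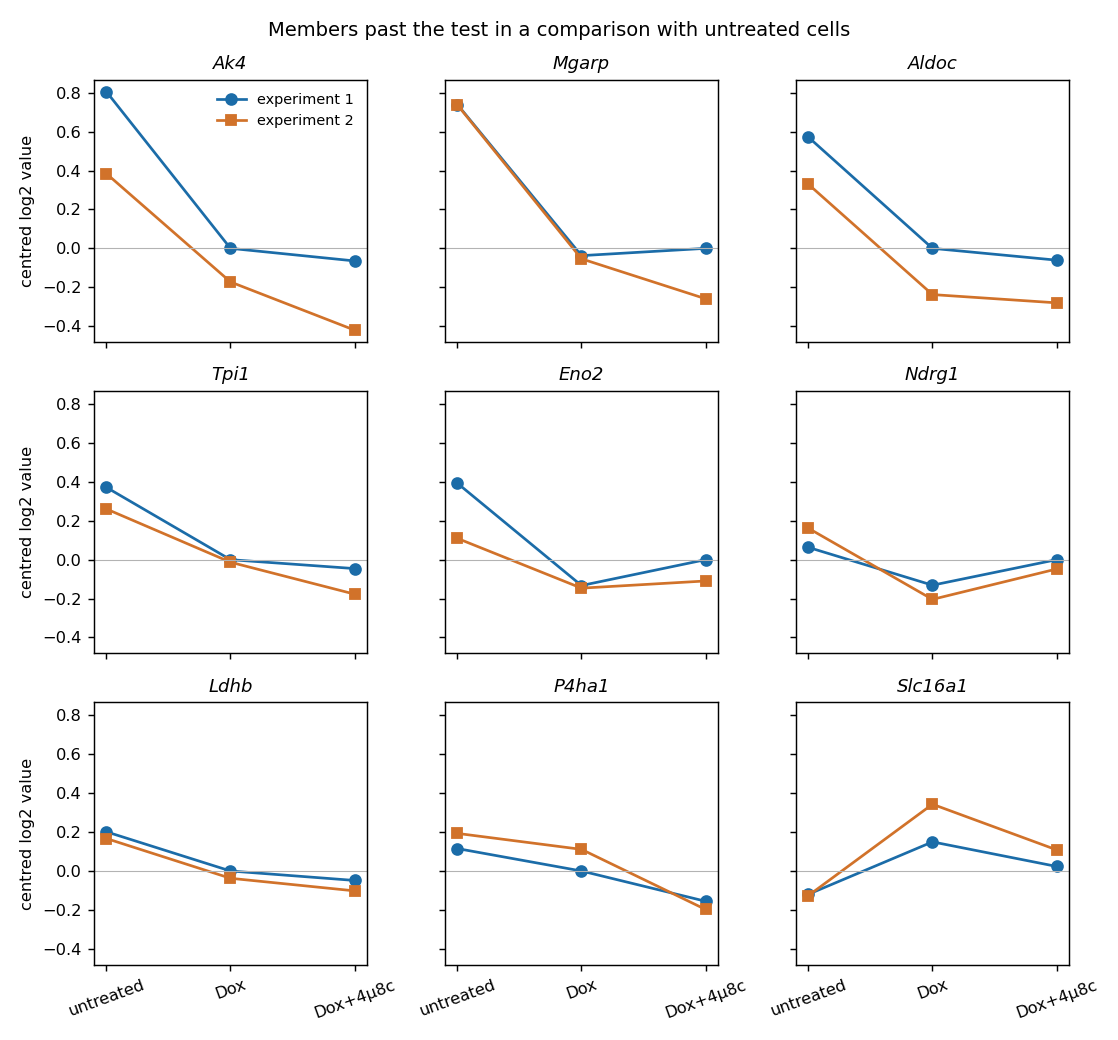
Centred log2 value on each of the 6 arrays (1 line per experiment) for the 9 members that passed the test in a comparison with untreated cells. In 8 panels both lines end lower at Dox+4μ8c than at untreated, and in the panel for Slc16a1 they peak at Dox.

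The further targets of the hypoxia response held the 2 largest falls. Ak4 was at 0.81 and 0.38 in untreated cells, at 0.00 and -0.17 with Dox and at -0.06 and -0.42 with Dox+4μ8c. Within each experiment the untreated array stood above both treated arrays. The fall with Dox was -0.81 and -0.56 (mean -0.68 ± 0.07 SE, n = 2 experiments, 1.60 fold lower, limma adjusted p = 0.0045), and Ak4 ranked 17 among the 12603 genes ordered from the lowest change.

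Mgarp was at 0.74 and 0.74 in untreated cells, at -0.04 and -0.05 with Dox and at 0.00 and -0.26 with Dox+4μ8c. Its arrays separated in the same way. The mean change with Dox was -0.78 ± 0.07 (SE, n = 2 experiments, 1.72 fold lower, limma adjusted p = 0.0036), which ranked 11 among all genes from the lowest. Each of the 2 genes has a single probeset on the array.

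Ndrg1, a stress-responsive gene raised by hypoxia in many cells, was at 0.06 and 0.16 in untreated cells, at -0.13 and -0.20 with Dox and at 0.00 and -0.05 with Dox+4μ8c. The Dox arrays were the lowest of their experiments and the Dox+4μ8c arrays lay between. Its mean change with Dox was -0.28 ± 0.06 (SE, n = 2 experiments, limma adjusted p = 0.0454), from 2 probesets with means of -0.23 and -0.33 that singly missed the threshold (limma adjusted p = 0.109 and 0.228).

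The other 5 hypoxia targets did not pass the test with Dox. Bnip3 and Bnip3l, mitophagy receptors that HIF-1 raises in many cells, had mean changes of 0.16 and 0.03. Higd1a, a small protein of the mitochondrial inner membrane, had -0.09. P4ha1 and P4ha2, catalytic subunits of collagen prolyl 4-hydroxylase, had -0.10 and 0.12. Bnip3 was higher than untreated in both experiments, by 0.18 and 0.13.

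None of the 4 genes of oxygen sensing passed the test with Dox (limma), and at an unadjusted p below 0.05 there was 1, lower. Hif1a changed by 0.02 and 0.01 with Dox (limma adjusted p = 0.89) and Egln1, the main oxygen sensor among the prolyl hydroxylases, by 0.03 and 0.02 (limma adjusted p = 0.774). Egln3, an inducible member of that family, had -0.02 and -0.22 (limma adjusted p = 0.364). Epas1 was the exception in size, at -0.21 in each experiment, just short of the threshold (mean -0.21 ± 0.05 SE, n = 2 experiments, limma adjusted p = 0.0514). Its 2 probesets gave means of -0.09 and -0.33, and the gene passed the test in 4 of 14 alternative settings.

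Among the transporters and the enzymes that handle lactate and pyruvate, Slc16a1 went the other way. It was at -0.12 and -0.13 in untreated cells, at 0.15 and 0.34 with Dox and at 0.02 and 0.11 with Dox+4μ8c. The untreated arrays were the lowest and the Dox arrays the highest of each experiment. The mean rise with Dox was 0.37 ± 0.06 (SE, n = 2 experiments, 1.29 fold, limma adjusted p = 0.0207). Its 2 probesets differed, with means of 0.58 (limma adjusted p = 0.0124) and 0.16 (limma adjusted p = 0.413).

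Slc2a1 (GLUT1) and Slc16a3 (MCT4), targets of HIF-1 in many cells, had mean changes of -0.08 and 0.01 with Dox. Ldha, which makes lactate from pyruvate, had 0.00 and 0.12, the first being a tie, and Ldhb, the isoform that favours the opposite direction, had -0.20 and -0.20 (mean -0.20 ± 0.05 SE, n = 2 experiments, limma adjusted p = 0.0561). The pyruvate dehydrogenase kinases, which inhibit pyruvate dehydrogenase, had means of 0.15 (Pdk1), -0.08 (Pdk2) and 0.04 (Pdk4). None of these 7 genes passed the test with Dox.

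**Figure D3:**
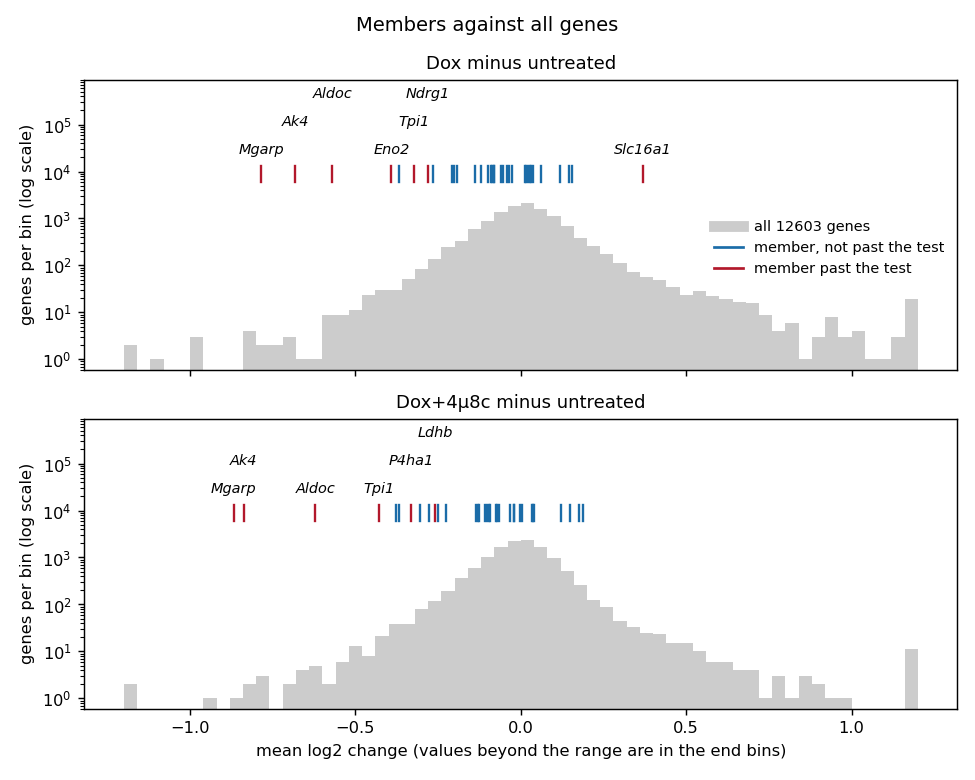
Mean log2 change against untreated cells of all 12603 genes (grey bars, genes per bin on a log scale) with the 34 measured members as ticks above them, red and named where past the test. With Dox (upper panel) the members run from -0.78 for Mgarp to 0.37 for Slc16a1, and with Dox+4μ8c (lower panel) from -0.87 to 0.19.

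To see the list when IRE1 was inhibited, Dox+4μ8c was compared with untreated cells. This comparison uses the same 2 untreated arrays as the first, so the 2 are given side by side and the likeness between them is not a second result. Again 6 of the 34 members fell and 0 rose, where 1.13% of all genes were called lower and 1.17% higher. The 6 were Ak4, Mgarp, Aldoc, Tpi1, Ldhb and P4ha1. The median was -0.10 over the members and 0.00 to 2 decimals over all genes. Without the Dox+4μ8c array of experiment 2 the members' median was -0.06, and without that of experiment 1 it was -0.14. Further, 21 of the 34 members were lower and 5 higher in both experiments, where 28.9% and 23.9% of all genes were. Here 3 members and 3439 of the 12603 genes were tied in experiment 1 and count in neither direction. At an unadjusted p below 0.05, 13 members were lower and 3 higher, against 9.15% and 6.27% of all genes.

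Ak4 had a mean change of -0.84 ± 0.07 with Dox+4μ8c (SE, n = 2 experiments, limma adjusted p = 0.00664), beside -0.68 with Dox. Mgarp had -0.87 ± 0.07 (limma adjusted p = 0.00748), beside -0.78. Aldoc had -0.62 ± 0.05 (limma adjusted p = 0.00568), beside -0.57, and was the third member past 1.5 fold, which 0.159% of all genes fell by in this comparison (0.302% rose by as much, and no member did). Tpi1 had -0.43 ± 0.05 (limma adjusted p = 0.0192), beside -0.32. These 4 genes are those called lower in both comparisons.

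P4ha1 was at 0.12 and 0.19 in untreated cells, at 0.00 and 0.11 with Dox and at -0.16 and -0.20 with Dox+4μ8c. The Dox+4μ8c arrays were the lowest of each experiment. Its mean change against untreated was -0.33 ± 0.06 (SE, n = 2 experiments, limma adjusted p = 0.0456). Ldhb was at 0.20 and 0.17 in untreated cells, at 0.00 and -0.04 with Dox and at -0.05 and -0.10 with Dox+4μ8c, a mean change of -0.26 ± 0.05 (SE, n = 2 experiments, limma adjusted p = 0.0495).

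Eno2 and Ndrg1, called lower with Dox, had mean changes of -0.31 and -0.14 with Dox+4μ8c and missed the threshold (limma adjusted p = 0.0981 and 0.345). Slc16a1 had 0.14 and 0.24 (limma adjusted p = 0.199). Just short of the threshold lay Slc2a1, with -0.25 and -0.30 (limma adjusted p = 0.056), and Aldoa, with -0.30 and -0.45 (limma adjusted p = 0.0569). The 12 measured glycolytic enzymes were all below 0 in the mean here too, where 50.9% of all genes were. Of the 12, 11 were lower in both experiments (28.9% of all genes, a share lowered by ties in experiment 1 that none of the 12 had), and the median was -0.18. Hif1a, Egln1 and Egln3 had means of 0.04, 0.00 to 2 decimals and -0.07, and Epas1 had -0.13.

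Whether IRE1 inhibition changed these genes in cells making mutant proinsulin is asked by the comparison of Dox+4μ8c with Dox. No member passed the test in either direction by limma, and at an unadjusted p below 0.05 there were 4 lower and 1 higher, where 1.61% of all genes were called lower and 0.175% higher after adjustment and 8.44% and 2.79% before. The members whose 95% interval lay below 0 were P4ha1, Slc2a1, Slc16a1 and Higd1a, and the one above 0 was Ndrg1. Ak4 differed by -0.16, with a 95% interval from -0.32 to 0.01, and Mgarp by -0.08, with one from -0.26 to 0.09. Over the 34 members the intervals ran from -0.39 at the lowest (Pfkl) to 0.36 at the highest (Pfkp), so each lay within a 1.5 fold difference either way, while 0.357% of all genes were lower and 0.0397% higher by 1.5 fold in the mean. In both experiments 15 members were lower and 7 higher, where 26.9% and 19.0% of all genes were. Ties in experiment 1, which count in neither direction, held 5 members and 3509 of all 12603 genes. A gene that passed the test in 1 of the 2 comparisons with untreated cells, such as Eno2 or P4ha1, is thus not shown to differ between Dox and Dox+4μ8c.

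P4ha1 came nearest, with -0.16 and -0.31 (mean -0.23 ± 0.06 SE, n = 2 experiments, limma adjusted p = 0.137). Slc2a1 had -0.14 and -0.26 (limma adjusted p = 0.174), Slc16a1 -0.13 and -0.23 (limma adjusted p = 0.308) and Higd1a -0.09 and -0.23 (limma adjusted p = 0.326).

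**Figure D4:**
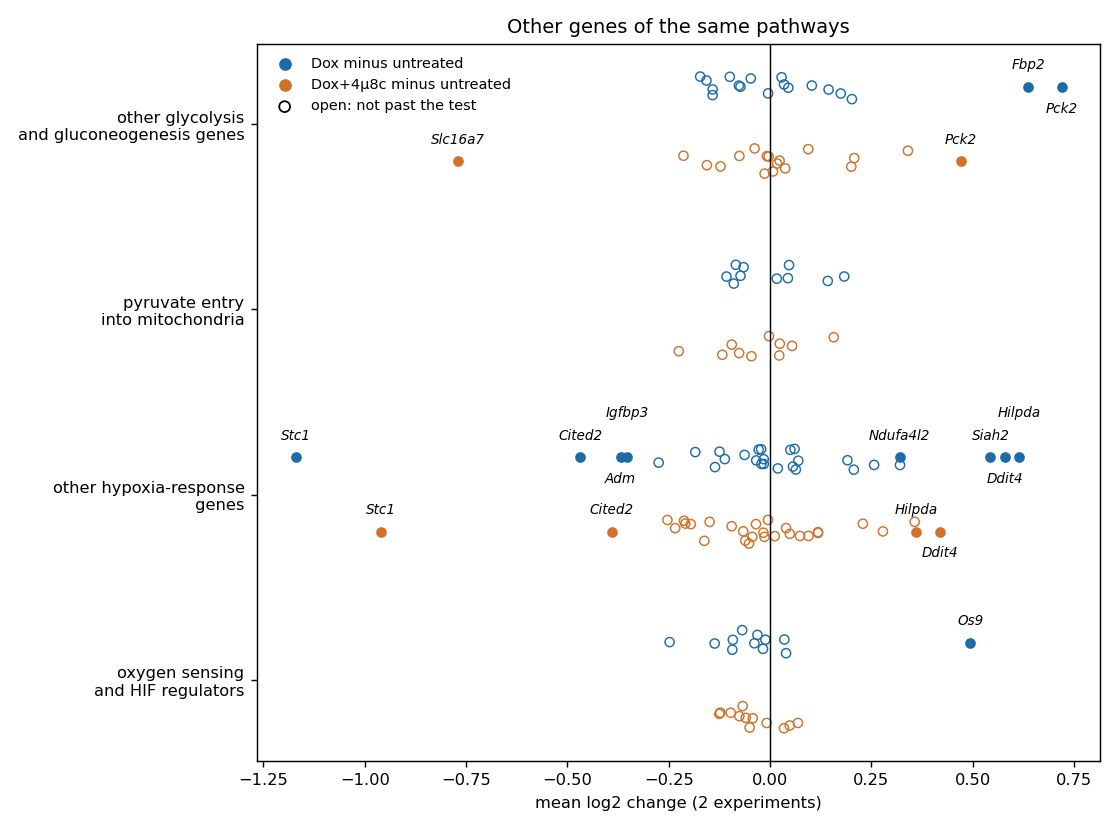
Mean log2 change of other genes of the same pathways with Dox (blue) and Dox+4μ8c (orange) against untreated cells, 1 point per gene, filled and named where past the test. Among the 30 other hypoxia-response genes, filled points with Dox lie on both sides of 0, from -1.17 for Stc1 to 0.61 for Hilpda.

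Other genes of these pathways were taken from lists by function, which were also chosen with earlier results of these data known. Their counts describe these lists and do not test how far the falls reach. Of 30 measured hypoxia-response genes outside the 37 (35 listed), 4 fell and 4 rose with Dox, where 2.01% and 4.42% of all genes did, and the median was -0.02. These shares over all genes are also the background for the calls with Dox in the lists that follow. Stc1, the hormone stanniocalcin 1, was at 0.76 and 0.64 in untreated cells, at -0.27 and -0.67 with Dox and at 0.00 and -0.52 with Dox+4μ8c. Its change with Dox was -1.17 ± 0.09 (SE, n = 2 experiments, limma adjusted p = 0.0024), larger in size than that of Ak4 or Mgarp. Cited2, which competes with HIF-1α for its coactivator, fell by 0.47 (limma adjusted p = 0.00577), and Adm, the peptide hormone adrenomedullin, fell by 0.37 (limma adjusted p = 0.00954).

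Against these stood Hilpda, a lipid droplet protein named for its induction by hypoxia, which rose by 0.61 ± 0.05 (SE, n = 2 experiments, limma adjusted p = 0.0024). Ddit4 (REDD1), an inhibitor of mTORC1 that ATF4 also raises in ER stress, rose by 0.58 (limma adjusted p = 0.00627), and Siah2, a ubiquitin ligase for prolyl hydroxylases, by 0.54 (limma adjusted p = 0.00342). The remaining 2 of the 8, named after their values were seen, were Igfbp3 with -0.35 (limma adjusted p = 0.0206) and Ndufa4l2 with 0.32 (limma adjusted p = 0.0289). With Dox+4μ8c, Stc1 (-0.96) and Cited2 (-0.39) were called lower and Ddit4 (0.42) and Hilpda (0.36) higher, and the median was -0.03.

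Of 18 measured further genes of glycolysis and gluconeogenesis (25 listed), 2 rose and 0 fell with Dox. These were Pck2, the mitochondrial phosphoenolpyruvate carboxykinase and a known ATF4 target, with 0.72 ± 0.07 (SE, n = 2 experiments, limma adjusted p = 0.00352), and Fbp2, the muscle isoform of fructose bisphosphatase, with 0.64 ± 0.08 (limma adjusted p = 0.00954). At an unadjusted p below 0.05, 4 of the 18 were higher and 3 lower, against 11.2% and 8.44% of all genes. Slc16a7 (MCT2), a transporter of pyruvate and lactate, was at 0.33 and 0.27 in untreated cells, at 0.00 and 0.40 with Dox and at -0.63 and -0.31 with Dox+4μ8c. Its Dox+4μ8c arrays were the lowest of both experiments. Its differences from Dox were -0.63 and -0.71 (mean -0.67 ± 0.11 SE, n = 2 experiments, limma adjusted p = 0.0436). With Dox+4μ8c against untreated, 1 of the 18 was called lower and 1 higher, where 1.13% and 1.17% of all genes were. These were Slc16a7 with -0.77 (limma adjusted p = 0.0281) and Pck2 with 0.47 (limma adjusted p = 0.0283).

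Of 10 measured genes for the entry of pyruvate into mitochondria and its handling there (12 listed), none passed the test in any of the 3 comparisons by limma. At an unadjusted p below 0.05 there was 1 higher with Dox and 1 lower in each of the other comparisons. Of 12 measured regulators of oxygen sensing and HIF (14 listed), 1 rose with Dox. This was Os9, which binds prolyl hydroxylases and is also a lectin of ER-associated degradation, with 0.49 ± 0.07 (SE, n = 2 experiments, limma adjusted p = 0.0138), and its difference between Dox+4μ8c and Dox was -0.59 (limma adjusted p = 0.021). The nearest relatives of Ak4 and Mgarp in function did not pass the test either. Ak3, the other mitochondrial matrix adenylate kinase and the only further adenylate kinase measured of 8 listed, had 0.10 with Dox, and the 6 genes of mitochondrial transport and fusion had means between -0.12 and 0.14.

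Markers of other islet cells were followed beside these results, since INS-1 cells can make more than one islet hormone. Of the 3 measured, Gcg (glucagon) changed by -2.22 with Dox (limma adjusted p = 0.000721) and by -1.36 with Dox+4μ8c (limma adjusted p = 0.00609), while Ppy and Ghrl had means of 0.13 and 0.05 with Dox and did not pass the test. Of the 7 β-cell markers measured, Mafa (-0.56) and Iapp (-0.25) fell with Dox (limma adjusted p = 0.009 and 0.0408), where 2.01% of all genes did. With Dox+4μ8c these 2 had 0.06 and -0.23 (limma adjusted p = 0.756 and 0.0835). Ins1 (-0.03), Ins2 (-0.13), Pdx1 (-0.09), Slc2a2 (-0.17) and Nkx6-1 (0.09) did not pass the test with Dox. The part of these islet markers in the fall of the glycolysis and hypoxia-response genes was not tested. For the 4 poly-A spikes, the median change in how far 5′ signal lay above 3′ signal, against the untreated array of the same experiment, was -0.40 for the Dox array of experiment 2, -0.28 for its Dox+4μ8c array, and -0.09 and -0.02 in experiment 1. Its part in these results was not tested.

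How firmly each member can be called lower or higher differed. Over 14 alternative settings of the fit, the fall with Dox passed the test for Ak4, Mgarp and Aldoc in 13 each, for Eno2 in 9, for Tpi1 and Ndrg1 in 8 each and the rise of Slc16a1 in 7. Ak4, Mgarp and Aldoc have 1 probeset each. Settings on probeset averaging, shared and control probesets, tied genes and variance moderation left their log2 changes as they were, so passing there says little. Without the term for the experiment the limma adjusted p was 0.0878 for Ak4 and 0.068 for Aldoc, and under quantile normalization 0.0928 for Mgarp. Without the Dox array of experiment 2, the array with the widest spread, the Dox group is 1 array, assumed to vary like the other groups. In that fit 7 members were called lower and 0 higher: Pfkp (-0.52) and Aldoa (-0.36) joined Ak4, Mgarp, Aldoc, Tpi1 and Eno2, while Ndrg1 (-0.23, limma adjusted p = 0.141) and Slc16a1 (0.29, limma adjusted p = 0.0502) no longer passed. Tpi1 missed the threshold without either untreated or either Dox+4μ8c array (limma adjusted p = 0.061 to 0.116), and Eno2 without the untreated array of experiment 1 or either Dox+4μ8c array (0.0824 to 0.124). For Dox+4μ8c against untreated, Ak4, Mgarp and Aldoc passed in 10 of the 14 settings each, Tpi1 and P4ha1 in 9 each and Ldhb in 6, and without the term for the experiment none of the 6 passed (limma adjusted p = 0.0742 to 0.123). No called change of a member turned its direction in any setting.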

How the data were processed

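The authors made log2 values with RMA from 6 Affymetrix 3′ IVT rat arrays (200 ng total RNA) and deposited centred per probeset within an experiment; the RMA version and build are not given in the sources used here. Of 25476 probesets, 52 were controls, 7068 had no symbol, 378 had several and 17978 had 1, and these were averaged per gene (12603 genes, none filtered out). The replicate number of the labels was taken as the experiment: the methods describe 2 independent experiments, and in 100% of probesets the middle of the 3 replicate 1 arrays was at 0 (0.836% for replicate 2, which leaves the pairing resting on the methods and the labels' numbers). The test was that of limma 3.58.1 under R 4.3.3 (groups plus experiment, 2 residual and 4.25 prior degrees of freedom, two-sided, Benjamini-Hochberg over 12603 genes per comparison, adjusted p below 0.05). The number of arrays limits the precision. Log2 changes are means over the 2 experiments, and folds their powers of 2. Intervals are 95% limits of the same fit. Tables and figures used Python 3.11.15, pandas 2.3.3, numpy 2.4.6 and matplotlib 3.10.9. The procedure was tested on simulated data. The members and lists were chosen with earlier results of these data known. Every measured member is named, of the other lists up to 6 genes past the test by smallest p (2 more in the hypoxia-response list), and all 6 ER stress checks. Alternatives changed the experiment term, array centring, normalization, probeset averaging, shared and control probesets, tied genes, the variance moderation, and each array left out in turn.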

Additional observations from a re-analysis of the deposited data

How the results depend on the processing

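With Dox, the 6 lower and 1 higher members became 2 and 0 in the fit with no replicate block, and 2 and 0 after quantile normalization within each experiment. Leaving out 1 array in turn gave 3 to 7 lower and 0 to 1 higher, with 3 lower without the untreated array of experiment 1 or either Dox+4μ8c array and 4 without the untreated array of experiment 2. The members' median log2 change of -0.0798 became -0.0900 with each array centred on its median, -0.0807 after quantile normalization, -0.0869 with tied genes left out, and -0.0813 to -0.0300 with 1 array left out, the latter without the Dox array of experiment 1. Fits with 1 array left out leave a group of 1 array, assumed to vary like the others. With Dox+4μ8c against untreated the members' median of -0.0987 became -0.1396 to -0.0636 with 1 array left out, the latter without the Dox+4μ8c array of experiment 2, and the 6 lower members became 0 with no replicate block and 0 to 11 with 1 array left out: 0 without the untreated array of experiment 1 or the Dox+4μ8c array of experiment 2, 1 without the Dox+4μ8c array of experiment 1, 3 without the untreated array of experiment 2 and 11 without either Dox array. Fits with 1 array left out also have fewer arrays, and the cause of the changed counts was not tested. Over all genes, 557 higher and 253 lower with Dox became 303 and 137 with no replicate block, 207 and 79 after quantile normalization, and 177 to 1104 and 61 to 655 with 1 array left out. For Dox+4μ8c against untreated, 148 and 142 became 0 and 0 with no replicate block and 8 to 318 and 2 to 394 with 1 array left out. For Dox+4μ8c against Dox, 22 and 203 became 14 and 129 with no replicate block, 0 and 1 after quantile normalization, and 0 to 325 and 0 to 580 with 1 array left out. No member was called in that comparison in any setting. Tested by single probesets, 490 rose and 164 fell with Dox, 57 and 33 with Dox+4μ8c against untreated, and 0 and 0 against Dox (435 and 1287 at an unadjusted p below 0.05); of the 49 member probesets, 4 were lower and 1 higher with Dox and 3 lower with Dox+4μ8c. Of 1419 values of single members over the settings, 1341 stayed on their side of the threshold, 57 lost and 21 gained the call, and 0 reversed. Reversals were counted only for called values: among the 1341, 43 changed sign with no call in either fit. The 12 glycolytic enzymes were below 0 with Dox under both other scalings, and 11 of 12 with rat control probesets kept. A filter on dim probes was not run, since the centring removed the signal levels. Keeping rat control probesets and leaving out tied genes were chosen after seeing the data.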
